A study of Mus musculus with 8 samples.

Results

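The genes described here are 42 transcripts of the integrated stress response and the unfolded protein response, taken by gene symbol from a list of names. The rule used no measured value, but the list was drawn up with earlier results of these data known. All 42 were found among the 39175 genes of each deposited table, all were tested in both genotypes, and all had at least 1 FPKM in a group (fragments per kilobase, scaled for library size). They were read by role. The ATF4 arm held 18 genes, of which 7 were transcription factors, 3 were listed as feedback genes and 8 served amino acid supply. The chaperone arm held 12 chaperones and folding enzymes of the endoplasmic reticulum (ER) and 4 genes of ER-associated degradation, and the other 8 genes were stress sensors and regulators.

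The cells were mouse embryonic fibroblasts of the C57BL/6J strain, all labelled as lacking p53. One genotype was p53-/- (p53KO), and the other was p53-/-Cry1-/-Cry2-/- (p53CryKO), labelled as also lacking both cryptochromes, repressors of the circadian clock. Each was either not treated or given UV of 254 nm at 40 J/m2 and collected 16 h later, with 2 replicates in each of 4 groups, 8 samples in all. Polyadenylated RNA was sequenced. The labels call the replicates biological and do not say whether they came from separate embryos. The deposited values are 1 pooled FPKM per gene and group, and values of single replicates, with their SD, are not given here. A gene was called where the authors' Cuffdiff test of the UV response gave a q-value of 0.05 or less. The 2 genotypes were normalized in separate tables, so levels given for both stand side by side and are not compared by a test. Errors are standard errors (SE) implied by the authors' test statistic.

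Both pathways answer to stress on protein synthesis. In the integrated stress response the kinases PERK, GCN2, HRI and PKR phosphorylate the translation factor eIF2, which slows general translation while the transcription factor ATF4 is made from its mRNA, and ATF4 then induces genes of amino acid supply and of feedback. UV light is known to activate GCN2 in mouse fibroblasts. In the unfolded protein response PERK is joined by ATF6 and by IRE1, which splices the mRNA of XBP1, and ATF6 and XBP1 induce chaperones, folding enzymes and degradation genes of the ER. A gene-level FPKM shows neither phosphorylation nor splicing nor translation.

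Fibroblast markers were present: 11 of 12 were above 1 FPKM in each group, with Lum at 0.0502 or below, and the list summed to between 2857 and 5425 FPKM. Summed epithelial markers stood at 0.287 FPKM before and 0.325 after UV in p53KO cells, but at 6.72 and 11.1 in p53CryKO cells, where Cdh1, Krt8 and Krt18 were each above 1; their part in the genotype comparison below was not tested. Endothelial markers summed to at most 1.43 FPKM, and of the leukocyte markers Cd68 held nearly all, with Ptprc at 0.00479 or below. Some markers moved with UV: Cd68 went from 2.41 to 12.5 and from 2.82 to 11.3 FPKM, Col1a1 from 477 to 229 and from 285 to 139, Pdgfra from 17.7 to 5.66 and from 3.26 to 1.27, and Vim from 1238 to 2502 and from 2256 to 4558. Their part in the results was not tested, and in such bulk samples fewer cells of a type and less RNA per cell cannot be told apart. Transcripts of the targeted genes were counted in groups labelled as lacking them: untreated Cry1 was 3.85 FPKM in p53KO and 3.34 in p53CryKO cells, Cry2 was 2.44 and 4.54, and Trp53 lay between 78.8 and 106 over the 4 groups. A gene-level FPKM cannot tell an intact transcript from a truncated one, so these values do not check the genotypes, which rest on the labels. Total counts are not in the files. The most frequent low value of FPKM times kilobases, read as the worth of a single fragment and not checked, was 0.0112 before and 0.0207 after UV in p53KO cells. The ratio was 1.85 in both genotypes. Each value is the centre of a bin on a fixed log grid, so the equal ratios may come from that grid.

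After UV the members split within each arm. Transcripts of amino acid supply and of ER chaperones mostly stood higher. The sensors, kinases and ER-associated degradation genes among the members stood lower or did not pass, and both arms held genes of either direction. The gene of the kinase PKR, Eif2ak2, is not a member and was called higher in both genotypes. In p53KO cells 19 of the 42 were called higher and 11 lower, against 29% and 31.7% of the 11951 genes tested with at least 1 FPKM. In p53CryKO cells 18 were higher and 14 lower, against 30.6% and 32% of 11783 genes. Counts by role below are to be read against these shares and were not tested. Called higher in both genotypes were 17 members, beside 25.8% of the 11246 genes measured in both, and called lower in both were 11, beside 28.3%. None was called in opposite directions, 6 were called in a single genotype and 8 in neither. The authors' q and the implied SE did not always give the same call. With p-values taken from the implied SE, 7 calls were lost in p53KO cells, those of Atf4, Ppp1r15a, Psat1, Xbp1, Hspa5, Canx and Syvn1. In p53CryKO cells 10 were lost, those of Atf5, Ppp1r15a, Trib3, Chac1, Asns, Psph, Ern1, Hspa5, Dnajc3 and Pdia4.

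These directions are relative to the median gene, whose log2 fold change was 0.05 in both genotypes under the authors' scaling. The summed FPKM of protein-coding genes was larger after UV, by 1.01 on the log2 scale in p53KO and by 1.02 in p53CryKO cells. When both groups were instead given the same coding total and tested with the implied SE, 1 member was higher and 18 were lower in p53KO cells, against 4.59% and 49.8% of all genes, and 1 was higher and 21 lower in p53CryKO cells, against 4.32% and 53.8%. The single higher member was Atf3 in p53KO and Nupr1 in p53CryKO cells. "Rose" and "fell" below therefore mean relative to the median gene, and each gene's percentile among all log2 fold changes does not move with the scale.

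**Figure D1:**
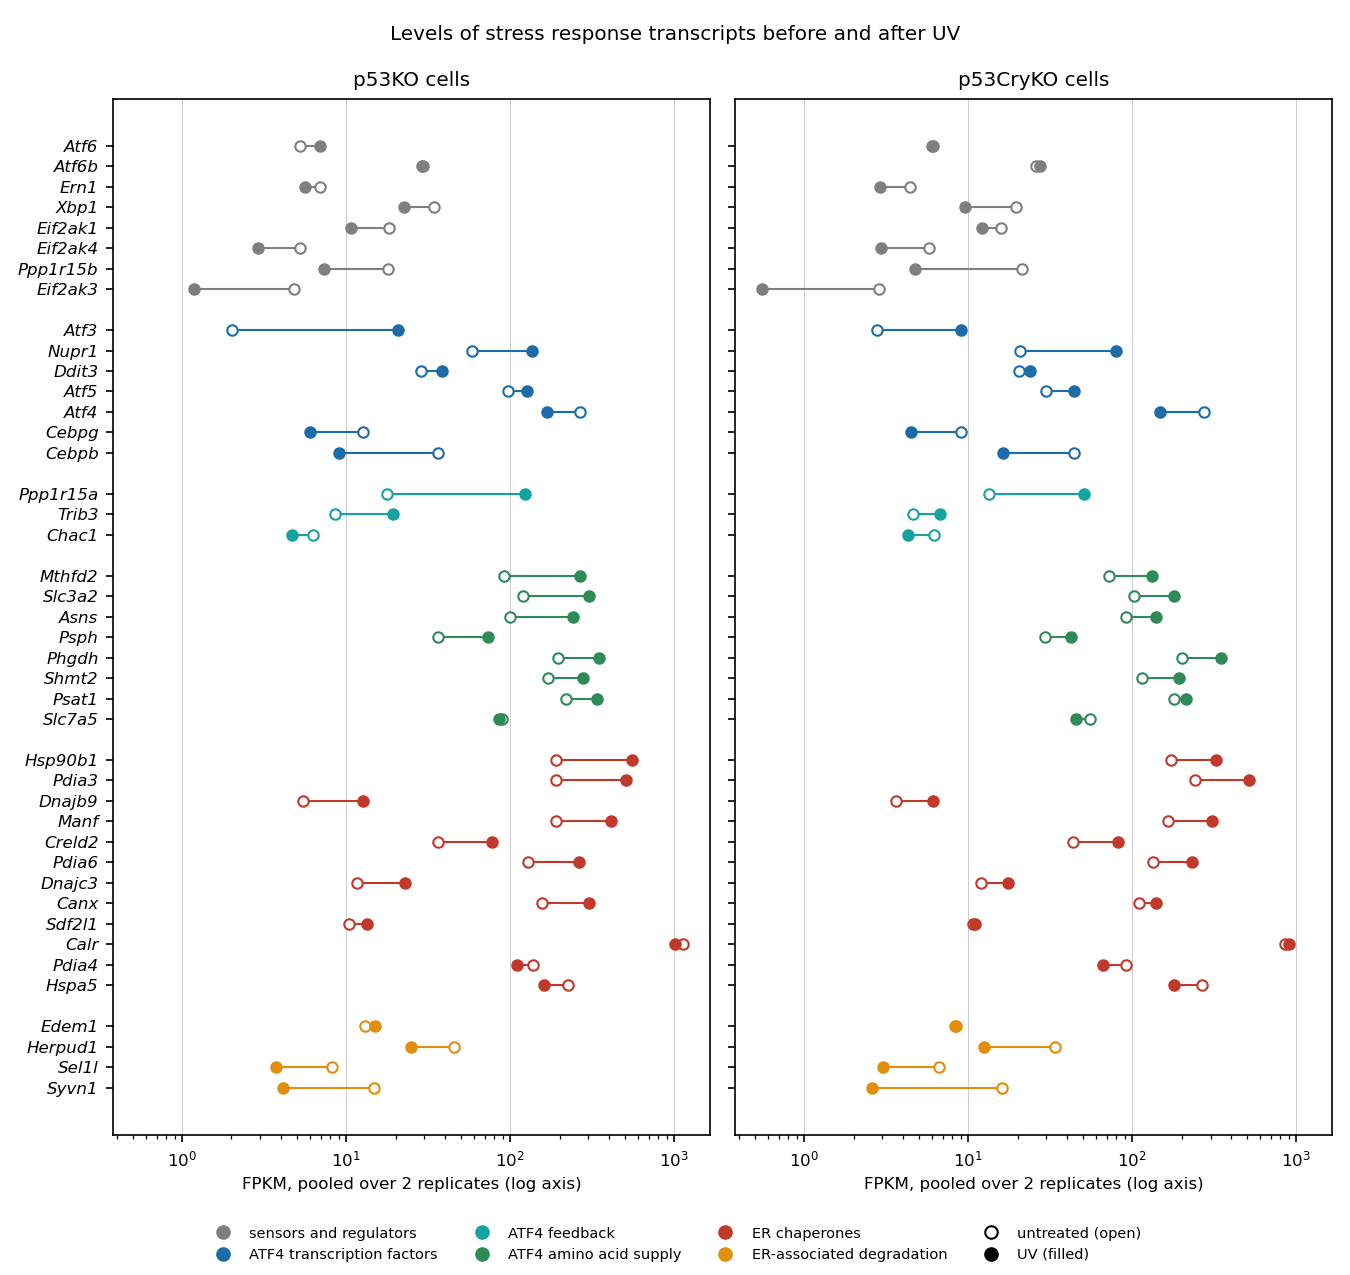
FPKM of the 42 transcripts on a log axis in untreated (open) and UV-treated (filled) cells, 1 pooled value per group of 2 replicates, p53KO on the left and p53CryKO on the right. Chaperones and amino acid genes lie mostly above 30 FPKM and move to the right, while sensors lie below 35 FPKM and mostly move to the left.

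The sensors and regulators came first in the pathway and none of the 8 was called higher in either genotype. Their median log2 fold change was -0.69 in p53KO cells, at the median percentile 31.5, and -0.79 in p53CryKO cells, at 27.8. Eif2ak3 encodes PERK, the eIF2 kinase of the ER membrane. It went from 4.81 to 1.18 FPKM in p53KO cells (log2 fold change -2.03, SE 0.45) and from 2.84 to 0.557 in p53CryKO cells (-2.35, SE 0.48). Eif2ak4 encodes GCN2, the kinase that senses uncharged tRNA. It fell from 5.25 to 2.89 FPKM in the first genotype (-0.86, SE 0.35) and from 5.80 to 2.95 in the second (-0.98, SE 0.33). Eif2ak1, encoding the kinase HRI, passed in neither (18.2 to 10.7 FPKM, and 15.9 to 12.2).

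Ppp1r15b encodes the constitutive subunit that targets a phosphatase to eIF2. It fell from 18.0 to 7.28 FPKM in p53KO (-1.30, SE 0.29) and from 21.3 to 4.76 in p53CryKO cells (-2.16, SE 0.26). Its stress-induced paralogue Ppp1r15a, encoding GADD34, rose, as described below, so the 2 subunit genes of this phosphatase were called in opposite directions. Xbp1 encodes the transcription factor spliced by IRE1. The level of Xbp1 fell from 34.4 to 22.6 FPKM in p53KO (-0.60, SE 0.29) and from 19.5 to 9.60 in p53CryKO cells (-1.02, SE 0.26). Ern1, which encodes IRE1 alpha, was called lower in p53CryKO cells (4.43 to 2.92 FPKM), while its p53KO values of 6.94 and 5.64 did not pass. Neither Atf6 (5.22 to 6.91 and 5.98 to 6.10 FPKM) nor its relative Atf6b (28.8 to 29.4 and 25.9 to 27.5 FPKM) passed. For the called sensors and regulators, q in the authors' deposited table was 0.00514 or less in p53KO and 0.00640 or less in p53CryKO cells.

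The transcription factors of the ATF4 arm went both ways. Of 7, 2 rose and 3 fell in p53KO cells, and 3 rose and 3 fell in p53CryKO cells. Atf4 itself (chromosome 15, 80255184 to 80257540 of GRCm38) was the most abundant of them. Its mRNA fell from 268 to 168 FPKM in p53KO (log2 fold change -0.68, SE 0.29) and from 274 to 147 in p53CryKO cells (-0.90, SE 0.25). The untreated levels were thus nearly equal in the genotypes and both UV levels lay below them.

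Atf3 encodes a stress-induced factor of the ATF/CREB family and is an ATF4 target (chromosome 1, 191170296 to 191183340). Its values were 2.03 FPKM untreated and 20.8 after UV in p53KO cells, a 10.3-fold rise (log2 3.36, SE 0.32, percentile 98.7 of all genes). In p53CryKO cells they were 2.77 and 9.10 FPKM, a 3.28-fold rise (1.71, SE 0.31, percentile 92.2). Both genotypes rose. Side by side the UV level read higher in p53KO cells, which was not tested. Nupr1 encodes a small stress-induced chromatin protein (chromosome 7, 126623249 to 126627010). It rose from 58.6 to 136 FPKM in p53KO (1.21, SE 0.28) and from 20.8 to 79.1 in p53CryKO cells (1.93, SE 0.26). Side by side its FPKM read lower in p53CryKO cells in both conditions, which was not tested. The fold read larger there, but the difference of the responses, given below, did not pass and its interval includes 0.

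Ddit3, which encodes CHOP, the factor that links long ER stress to cell death, did not pass. It read 28.6 and 38.7 FPKM in p53KO (0.43, SE 0.81) and 20.4 and 23.7 in p53CryKO cells (0.21, SE 0.79), and its error is wide enough to hold a rise or a fall of more than 1 on the log2 scale. Its locus in the table also holds Mars. Atf5, a further factor translated under eIF2 phosphorylation, was called in p53CryKO cells (29.7 to 44.2 FPKM, q = 0.0452 in the authors' deposited table) and not in p53KO cells (97.4 to 127). Both C/EBP members fell. Cebpb, a partner of ATF4, read 36.2 and 9.11 FPKM in p53KO (-1.99, SE 0.51) and 44.2 and 16.3 in p53CryKO cells (-1.43, SE 0.43), and Cebpg, another partner, fell to a like extent in both (12.6 to 6.03 and 8.98 to 4.50 FPKM).

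The genes listed as feedback are induced by the response, and Ppp1r15a and Trib3 limit it in different ways. Ppp1r15a, whose product returns eIF2 to its active form, rose from 17.8 to 122 FPKM in p53KO cells (6.87-fold, log2 2.78, SE 1.20, percentile 97.9) and from 13.4 to 50.9 in p53CryKO cells (1.93, SE 1.03). Its error is large and its locus in the table holds 3 other genes. In the authors' deposited table its q was 0.000620 in p53KO and 0.0313 in p53CryKO cells. Trib3, a pseudokinase that inhibits ATF4 and AKT, rose as well (8.52 to 19.3 FPKM, 1.18, SE 0.30, and 4.59 to 6.75, 0.56, SE 0.28). Chac1 encodes an enzyme that degrades glutathione and is a common readout of ATF4 and CHOP. It did not share this direction: it read 6.26 and 4.70 FPKM in p53KO cells, where it did not pass, and fell from 6.22 to 4.28 in p53CryKO cells (-0.54, SE 0.29).

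Amino acid supply was the most uniform group of the ATF4 arm. Of 8 genes 7 rose and 0 fell in p53KO cells (median log2 fold change 0.92, median percentile 75.5), and 6 rose and 0 fell in p53CryKO cells (0.69, percentile 70.3). Over the 8, summed FPKM was 1021 before and 1932 after UV in p53KO cells, with 845 and 1296 for p53CryKO. As a share of all coding FPKM, however, the group held 0.202% before and 0.190% after UV in p53KO cells, with 0.160% and 0.121% for p53CryKO.

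Among these genes the largest log2 fold change in both genotypes was that of Mthfd2, a mitochondrial enzyme of the folate cycle. It stood at 91.4 and 267 FPKM in p53KO (1.55, SE 0.30) and at 72.0 and 131 in p53CryKO cells (0.87, SE 0.26). Slc3a2, the heavy chain shared by several amino acid transporters, rose from 119 to 304 FPKM (1.35) and from 103 to 179 (0.80). Asns, the asparagine synthetase and a classic ATF4 target, rose from 99.6 to 241 (1.27) and from 91.2 to 140 (0.62). The serine pathway rose at each step in p53KO cells. Phgdh, its first enzyme, had nearly the same values in the genotypes (196 to 347 FPKM in p53KO, 201 to 350 in p53CryKO). Psph, the last enzyme, went from 36.3 to 73.2 and from 29.5 to 42.2 FPKM. Psat1, the step between them, rose in p53KO cells (219 to 336 FPKM) but was not called in p53CryKO cells (178 to 214). Shmt2, which takes serine into the mitochondrial folate cycle, rose in both (171 to 278 and 115 to 194 FPKM).

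Slc7a5, the light chain that pairs with Slc3a2, was the exception, at 89.5 and 85.8 FPKM before and after UV in p53KO cells and at 55.5 and 45.6 in p53CryKO cells. Its SE of 2.11 and 1.66 is the widest of any member in each genotype, ahead of Ppp1r15a with 1.20 and 1.03. The table assigns Slc7a5 to a locus of 4435 kb on chromosome 8 (119910360 to 124345724) that holds 182 other genes, whereas the annotated gene spans 26.5 kb, so for Slc7a5 this test says little.

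**Figure D2:**
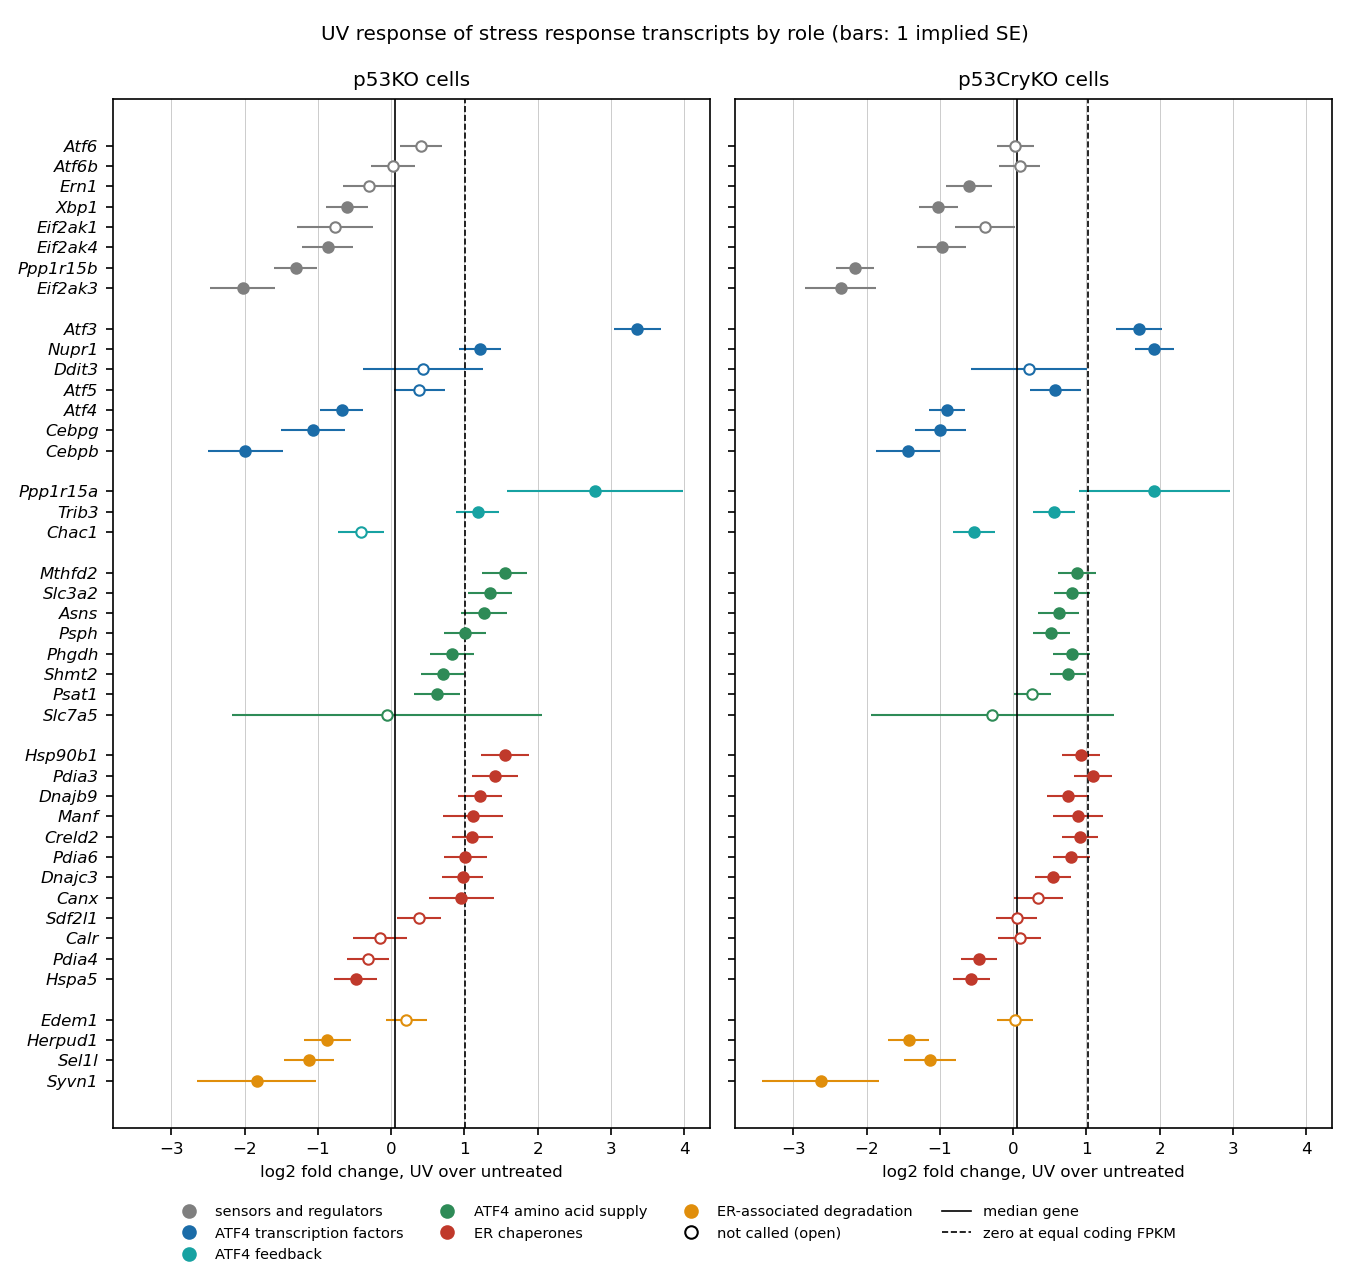
Log2 fold change after UV for each member with 1 implied SE, by role, in p53KO (left) and p53CryKO cells (right). Open points were not called, the solid line is the median gene at 0.05 and the dashed line is where a gene with no change would lie at equal coding FPKM, at 1.01 and 1.02. Few points lie clearly to the right of the dashed line, with Atf3 the farthest in p53KO cells.

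The chaperone arm also divided. Of the 12 ER chaperones and folding enzymes, 8 rose and 1 fell in p53KO cells (median log2 fold change 1.00, median percentile 77.6), and 7 rose and 2 fell in p53CryKO cells (0.65, percentile 69.1). Of the 4 ER-associated degradation genes 0 rose and 3 fell in each genotype (medians -0.997 and -1.28, percentiles 24.5 and 17.9). Hsp90b1, encoding the ER form of HSP90, had the largest rise of the 12 in p53KO cells. It went from 189 to 555 FPKM there (1.55, SE 0.33) and from 171 to 326 in p53CryKO cells (0.93, SE 0.26). Pdia3, a disulfide isomerase of glycoprotein folding, reached nearly the same level in both genotypes (191 to 511 FPKM, 1.42, and 242 to 514, 1.09). The tested loci of Hsp90b1 and Pdia3 each hold 3 other genes.

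Hspa5, by contrast, was called lower in both genotypes, by a small margin. It encodes BiP, the central ER chaperone and the standard marker of the unfolded protein response (chromosome 2, 34771970 to 34776531). It read 224 FPKM untreated and 160 after UV in p53KO cells (-0.49, SE 0.30, percentile 36.3), and 266 and 179 in p53CryKO cells (-0.57, SE 0.25, percentile 32.7). In the authors' deposited table q was 0.0375 and 0.00311. The call did not hold with the implied SE in either genotype, and the 95% interval of the p53KO value was -1.07 to 0.099, which includes 0. Pdia4, another disulfide isomerase, followed it in p53CryKO cells (91.4 to 66.2 FPKM, -0.47) and was not called in p53KO cells (137 to 110). Among those that rose in both genotypes, Manf, a secreted protein of the ER, went from 189 to 410 and from 166 to 305 FPKM. The tested locus of Manf holds 3 other genes. Creld2, also a secreted ER stress protein, went from 36.1 to 77.7 and from 43.4 to 81.5. Pdia6, an isomerase that acts on IRE1 and PERK, went from 129 to 261 and from 134 to 232 FPKM. The rises of these 3 genes were of similar size, between 0.80 and 1.12 on the log2 scale over both genotypes.

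Both DnaJ cochaperones of BiP among the members rose. Dnajb9, which restrains IRE1, went from 5.45 to 12.7 and from 3.65 to 6.13 FPKM, and Dnajc3, an inhibitor of PERK, from 11.6 to 22.9 and from 11.9 to 17.4. Canx, the membrane-bound lectin chaperone calnexin, rose in p53KO cells (156 to 302 FPKM, 0.95, SE 0.44) and was not called in p53CryKO cells (109 to 139). Its soluble partner Calr, calreticulin, the most abundant member, passed in neither (1128 to 1016 and 854 to 907 FPKM). Sdf2l1, a BiP cofactor, did not pass either (10.3 to 13.5 FPKM in p53KO cells, log2 0.38, and a log2 fold change of 0.05 in p53CryKO cells).

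ER-associated degradation removes misfolded proteins to the cytosol. Syvn1, its ubiquitin ligase, fell from 14.8 to 4.13 FPKM in p53KO (-1.84, SE 0.81) and from 16.1 to 2.61 in p53CryKO cells (-2.63, SE 0.80, percentile 2.97). Sel1l, the partner of that ligase, fell from 8.14 to 3.74 and from 6.68 to 3.04 FPKM. Herpud1, a stress-induced organiser of the same complex, fell from 45.5 to 24.9 (-0.87, SE 0.32) and from 33.7 to 12.6 FPKM (-1.43, SE 0.28). Edem1, a lectin that delivers glycoproteins to it, read 12.9 and 14.9, and 8.25 and 8.41 FPKM, and did not pass. All 3 named parts of the ligase complex were thus called lower after UV in both genotypes. The tested loci of Syvn1 and of Herpud1 each hold 2 other genes, and the p53KO call of Syvn1 was lost with the implied SE.

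The promoter windows of RefSeq (GRCm38.p6, 250 bases before to 50 after the annotated start) are shown because they set the members of an arm side by side. A window was found for 38 of the 42 members (41 windows), and each was searched on both strands for 3 motifs. The ER stress response element, CCAAT and CCACG with 9 free bases between them, is recognised by ATF6 with NF-Y and by XBP1. It was found in 8 members, all of the chaperone arm, which is 21.1% of members with a window against 0.137% of 27025 genes with a window. Members were listed by known role and the motif was picked for ATF6 and XBP1. This excess could therefore be foreseen, was not tested and says nothing about UV. The 8 genes are shown with 15 bases on each side and the element in capitals, 5′ to 3′ on the strand on which it reads CCAAT first.
Hsp90b1, chr10:86705518-86705566, plus strand: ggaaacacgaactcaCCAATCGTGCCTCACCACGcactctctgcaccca
Hsp90b1, chr10:86705623-86705671, minus strand: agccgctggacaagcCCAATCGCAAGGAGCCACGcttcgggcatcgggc
Creld2, chr15:88819505-88819553, minus strand: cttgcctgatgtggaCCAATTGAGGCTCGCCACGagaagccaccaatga
Pdia6, chr12:17266476-17266524, plus strand: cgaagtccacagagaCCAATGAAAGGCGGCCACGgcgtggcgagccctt
Dnajc3, chr14:118937812-118937860, plus strand: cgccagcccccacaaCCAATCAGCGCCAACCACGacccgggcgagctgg
Canx, chr11:50325785-50325833, minus strand: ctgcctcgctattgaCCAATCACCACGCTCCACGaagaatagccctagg
Calr, chr8:84847060-84847108, plus strand: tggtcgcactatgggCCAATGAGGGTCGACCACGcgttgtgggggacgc
Hspa5, chr2:34772010-34772058, plus strand: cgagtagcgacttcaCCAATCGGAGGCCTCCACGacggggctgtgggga
Syvn1, chr19:6046517-6046565, plus strand: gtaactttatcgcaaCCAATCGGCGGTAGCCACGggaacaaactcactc

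The lines run from the largest rise to the largest fall in p53KO cells. The same element thus stood in the windows of genes that rose, such as Hsp90b1 and Creld2, of Calr, which passed in neither genotype, and of Hspa5 and Syvn1, which were called lower. Of the 8 genes 5 rose and 2 fell in p53KO cells (log2 fold changes from -1.84 to 1.55), and 4 rose and 2 fell in p53CryKO cells (from -2.63 to 0.93). The 250 bases before the start of Hspa5 and of Hsp90b1, whose transcripts went in opposite directions, are given in full on the strand of each gene, with full matches to the element in capitals. Only exact letters were counted, so near matches in either window were left out and the counts are not counts of working elements. Hsp90b1 holds 2 matches, 1 on each strand, and Hspa5 holds 1, which begins 65 bases before the RefSeq start. Both that start and the match lie inside the Hspa5 locus given above.
Hspa5, chr2:34771840-34772089, plus strand: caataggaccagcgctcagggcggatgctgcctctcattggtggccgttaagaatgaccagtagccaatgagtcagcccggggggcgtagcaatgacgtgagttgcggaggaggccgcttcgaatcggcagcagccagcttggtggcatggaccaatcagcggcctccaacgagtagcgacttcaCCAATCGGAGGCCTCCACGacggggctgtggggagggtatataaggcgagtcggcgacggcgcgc
Hsp90b1, chr10:86705445-86705694, minus strand: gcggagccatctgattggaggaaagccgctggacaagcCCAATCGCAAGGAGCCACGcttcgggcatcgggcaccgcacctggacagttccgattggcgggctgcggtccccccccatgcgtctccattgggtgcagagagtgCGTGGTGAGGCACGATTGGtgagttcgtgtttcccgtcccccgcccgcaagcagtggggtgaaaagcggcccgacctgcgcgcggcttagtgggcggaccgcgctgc

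The C/EBP-ATF response element, TGATGNAA, is bound by ATF4 with C/EBP partners. It was found in 6 members, 15.8% against 4.51% of all genes with a window, and 5 of the 6 belong to the ATF4 arm. This motif was likewise picked for ATF4, so a larger share among members could be foreseen and was not tested. Each is shown with 11 bases on either side, again with the element in capitals and on the strand on which it reads TGATG first.
Atf3, chr1:191183425-191183454, plus strand: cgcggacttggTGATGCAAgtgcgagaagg
Asns, chr6:7693214-7693243, minus strand: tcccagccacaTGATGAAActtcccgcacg
Nupr1, chr7:126625562-126625591, plus strand: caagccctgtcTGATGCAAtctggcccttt
Trib3, chr2:152344028-152344057, plus strand: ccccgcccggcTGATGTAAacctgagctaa
Chac1, chr2:119351038-119351067, minus strand: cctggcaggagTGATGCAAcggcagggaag
Herpud1, chr8:94386306-94386335, minus strand: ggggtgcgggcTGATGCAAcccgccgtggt

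The same 8 letters with C at the free base stood before the RefSeq start of Atf3 and Nupr1, which rose, and of Chac1 and Herpud1, which read lower after UV. The Nupr1 match lies inside the locus given above for that gene. Of the 6 genes 4 rose and 1 fell in p53KO cells and 4 rose and 2 fell in p53CryKO cells. These counts too are small, stand beside the shares of all genes given above and were not tested. The unfolded protein response element TGACGTGG was found in 0 members and in 0.714% of all genes with a window, which says only that these letters are not in these windows. No member held both kinds of match. Each match describes letters in a window and not a binding site.

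**Figure D3:**
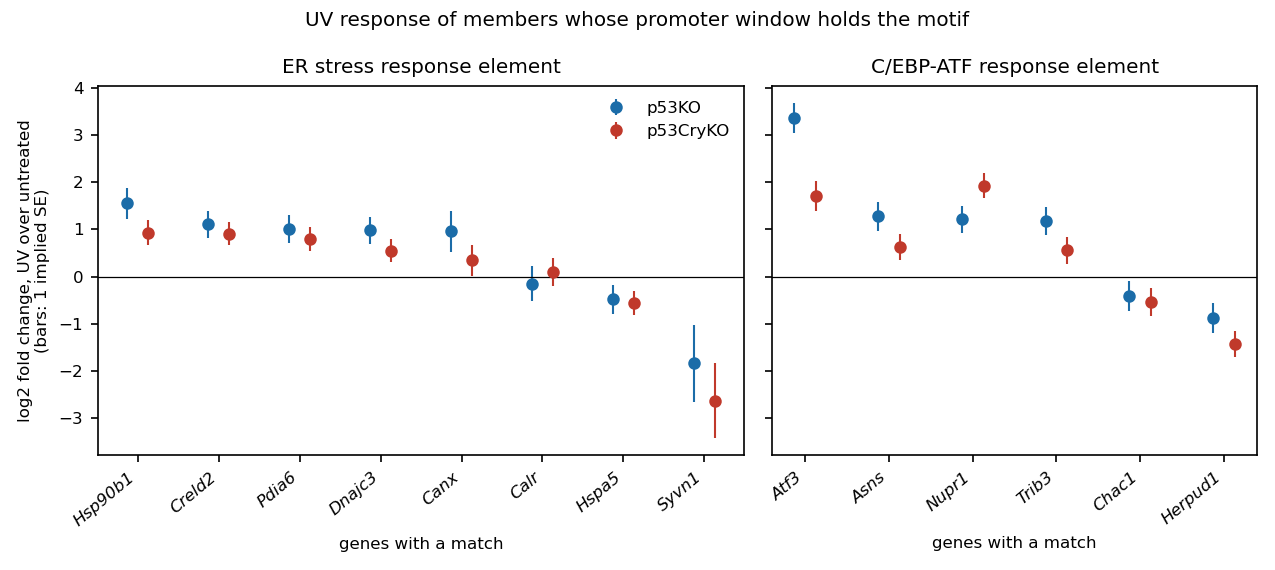
Log2 fold change after UV with 1 implied SE for the 8 members whose window holds the ER stress response element (left) and the 6 whose window holds the C/EBP-ATF response element (right), p53KO in blue and p53CryKO in red. In both panels genes lie on both sides of 0, from -2.63 to 1.55 on the left and from -1.43 to 3.36 on the right.

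Each arm was summarised by its median. The median log2 fold change was 0.77 for the 18 genes of the ATF4 arm and 0.67 for the 16 of the chaperone arm in p53KO cells, a difference of 0.10. In p53CryKO cells the medians were 0.57 and 0.21, a difference of 0.35. Within p53KO cells members ranged from -1.99 to 3.36 in the ATF4 arm and from -1.84 to 1.55 in the chaperone arm. The sign of the contrast depended on the genes counted: without the degradation genes it was -0.23 in p53KO and -0.082 in p53CryKO cells. Without the transcription factors as well, the p53KO medians were nearly equal, at 1.01 for the ATF4 arm and 0.996 for the chaperones. In p53KO cells the contrast was 0.79 over the 11 genes of the ATF4 arm and 9 of the chaperone arm that share their locus in the table with no other gene. In p53CryKO cells the medians over the same genes were 0.62, the value of Asns, and 0.088, that of Calr. No test was made of these medians.

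Transcript length moved with the UV response in general. Across 10468 protein-coding genes of p53KO cells, log2 fold change and log exonic length had a Pearson r of -0.26, and across the 42 members r was also -0.26 (-0.30 and -0.31 in p53CryKO cells). These are correlations across genes of the same libraries. Median exonic length was 5.85 kb for the sensors and regulators and 5.66 kb for the degradation genes, against 3.33 kb for the chaperones and 3.51 kb for amino acid supply. With the trend of like-length genes removed, the medians in p53KO cells were -0.42 and -0.93 for the former and 1.06 and 1.00 for the latter. The order of these groups stayed, but that of all groups did not. The median of the feedback genes went from 1.18 to 0.84, and that of the ATF4 arm's transcription factors from 0.38 to -0.09. The part of length in the results was not tested.

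The wider pathway was read from 6 lists with 111 further genes, whose counts can be read against the shares of all genes given above. Over all lists 49 were higher and 29 lower of 106 measured in p53KO cells, and 40 and 26 of 103 in p53CryKO cells. At equal coding FPKM these became 5 higher and 48 lower, and 2 higher and 55 lower, so the directions below are again relative to the median gene. The eIF2 and eIF2B list, the target of the kinases and its exchange factor, had 5 higher and 1 lower of 11 in both genotypes. Eif2s2, the beta subunit of eIF2, went from 47.9 to 263 and from 72.3 to 215 FPKM. Eif2s1, the alpha subunit that the kinases phosphorylate, went from 24.2 to 99.9 and from 42.9 to 113, and Eif2b3 from 9.65 to 49.8 and from 13.6 to 54.6. Impact, an inhibitor of GCN2, fell (8.23 to 3.58 and 9.71 to 4.44 FPKM). Eif2ak2, which encodes PKR, was called higher in both genotypes, unlike the kinase genes among the members. It went from 2.42 to 6.06 FPKM in p53KO cells (log2 fold change 1.33, SE 0.39) and from 4.32 to 6.42 in p53CryKO cells (0.57, SE 0.32).

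Further ATF4 targets went both ways, with a share called higher in p53KO cells near the 29% of all genes. Of 25 measured in p53KO cells 8 were higher and 11 lower (median log2 fold change -0.33), and of 22 in p53CryKO cells 3 were higher and 9 lower (-0.48). Slc38a2, a neutral amino acid transporter, fell from 102 to 13.4 and from 80.4 to 13.3 FPKM, and Ddit4, an inhibitor of mTORC1, from 12.1 to 2.66 and from 4.47 to 1.55. Sesn2, a leucine sensor upstream of mTORC1, also fell (2.79 to 0.867 and 2.30 to 0.396 FPKM). Ero1l, an oxidase of the ER, rose (5.35 to 12.3 and 4.69 to 7.57). Fgf21, a stress-induced hormone, and Cth, an enzyme of cysteine synthesis, rose in p53KO cells (0.550 to 2.40 and 4.36 to 9.41 FPKM), with p53CryKO values (0.0453 to 2.46 and 3.34 to 4.24) that missed the threshold.

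Cytosolic tRNA synthetases, several of them ATF4 targets, had 6 higher and 2 lower of 12 in p53KO cells and 4 higher and 2 lower in p53CryKO cells. Lars rose most (17.4 to 61.2 and 19.0 to 46.0 FPKM), Nars (84.9 to 259 and 101 to 189) and Tars (78.2 to 182 and 87.7 to 118) rose too, and Cars and Iars fell by up to 0.61 on the log2 scale. Genes of ER folding and translocation counted 20 higher and 5 lower of 31 in p53KO cells (median 0.82) and 22 higher and 3 lower of 31 in p53CryKO cells (0.64). At equal coding FPKM the same list had 1 higher and 9 lower, and 0 higher and 9 lower. Spcs1, of the signal peptidase, went from 152 to 609 and from 226 to 694 FPKM. Ppib, an ER prolyl isomerase, went from 420 to 1254 and from 426 to 1165, and the ER selenoprotein Selenof from 360.1 to 1101 and from 383 to 1028. The COPII coat genes Sec23b (26.4 to 8.55 and 31.9 to 14.2) and Sec24d (24.7 to 9.55 and 23.2 to 9.27), of export from the ER, fell, as did Txndc11 (11.1 to 5.40 and 6.85 to 2.98).

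The wider degradation list had 8 higher and 4 lower of 16 in p53KO cells and 4 higher and 4 lower in p53CryKO cells. Selenos, which recruits the ATPase p97 to the ER, rose from 34.8 to 121 and from 26.0 to 62.9 FPKM. The ubiquitin-conjugating enzyme genes Ube2g2 (49.3 to 97.0) and Ube2j1 (28.3 to 53.5) rose in p53KO cells and were not called in the other genotype. Edem3 fell (3.50 to 0.530 and 2.98 to 0.591), as did Faf2 (23.4 to 8.84 and 22.8 to 8.77), while Edem2 fell in p53KO cells (13.4 to 8.08) and was not called in p53CryKO cells (12.9 to 10.7). The list of other sensors and processing factors had 2 higher and 6 lower of 11 in p53KO cells, with 2 higher and 7 lower for p53CryKO. Those higher were Rtcb, the ligase that joins Xbp1 mRNA after IRE1 cuts it (96.4 to 143 and 99.3 to 148), and Rtca (30.5 to 81.1 and 36.5 to 74.0). Creb3l1, a relative of ATF6 (14.2 to 4.44 and 26.5 to 7.80), Wfs1 (5.18 to 1.83 and 4.66 to 1.26) and Nfe2l2, which encodes NRF2 (23.3 to 9.60 and 22.0 to 10.9), fell.

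The last comparison was whether the UV response differed between the genotypes. The difference of log2 fold changes, p53CryKO minus p53KO, was divided by its SE and read from a normal curve, with p-values adjusted by Benjamini-Hochberg over 12300 genes; pooled values allow no permutation test. At an adjusted p of 0.05, 0 of the 42 members differed, beside 0.179% of all genes tested, and 2 had an unadjusted p under 0.05, beside 3.03% of all genes. Those were Atf3 and Ppp1r15b. Since a permutation test was not possible, the adjusted p = 0.0864 of Atf3, the smallest of any member, rests on that normal curve. The difference for Atf3 was -1.65 (SE 0.45, 95% interval -2.53 to -0.77), and for Ppp1r15b it was -0.86 (SE 0.39, interval -1.62 to -0.10). For Nupr1 the difference was 0.71 (SE 0.39, interval -0.04 to 1.47), for Atf4 it was -0.22 (interval -0.97 to 0.52), and for Hspa5 it was -0.08 (interval -0.85 to 0.68). These intervals are wide, so a missed threshold does not show that the genotypes responded alike.

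In most members the log2 fold change read lower in p53CryKO cells. For a gene that rose in both genotypes, a lower value there means a smaller rise. The members were measured in the same libraries and are not independent, so their count was not tested. The difference was below 0 in 34 of 42 members, with a median of -0.27, beside 53.4% of all 12300 genes with a median of -0.03. It was below 0 in 11 of 12 chaperones and in 7 of 8 genes of amino acid supply. Across members the log2 fold changes of the genotypes had a Pearson r of 0.94, and across 11246 genes r was 0.93.

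**Figure D4:**
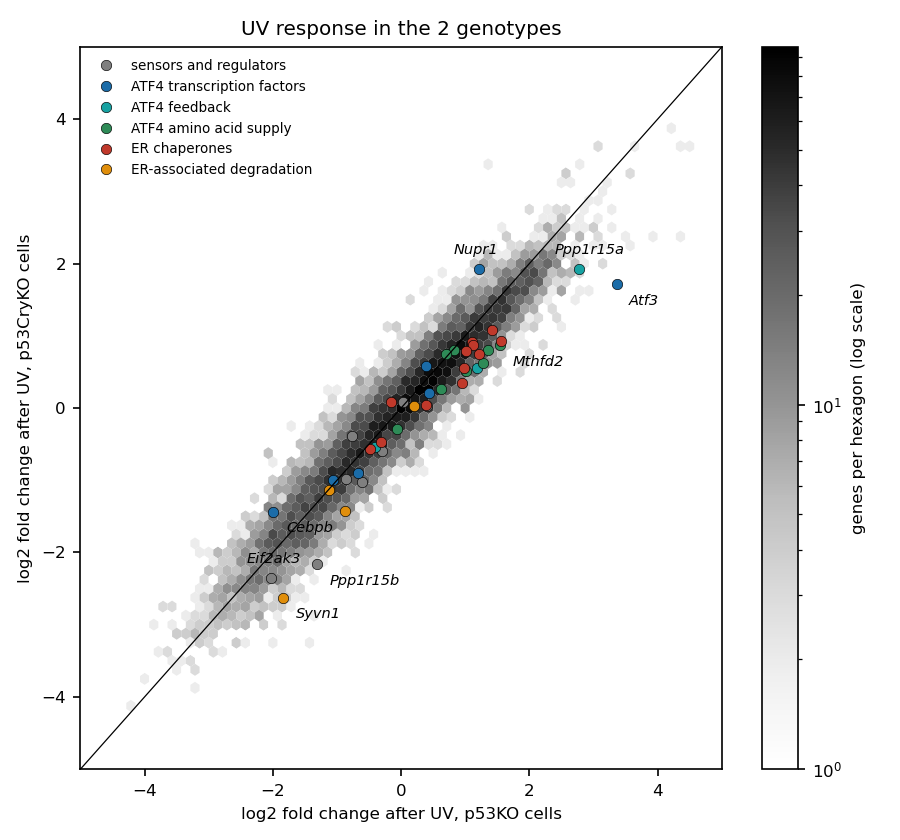
Log2 fold change after UV in p53KO (x axis) and p53CryKO cells (y axis) for the members by role, over the density of the 11246 genes measured in both (grey, log scale), with the line of equal response; 49 genes beyond 5 on either axis are not drawn. Most members lie under the line, and Atf3, at 3.36 and 1.71, lies farthest below it.

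Untreated levels stood side by side in separately normalized tables and were not tested. The untreated FPKM was lower in p53CryKO than in p53KO cells for 28 of 42 members. The widest gaps were those of Atf5 (97.4 against 29.7 FPKM) and Nupr1 (58.6 against 20.8), followed by Trib3 (8.52 against 4.59) and Xbp1 (34.4 against 19.5). Atf4 (268 against 274) and Chac1 (6.26 against 6.22) were nearly level.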

How the data were processed

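Reads were handled with STAR 2.5.2, Trimmomatic 0.35, FastQC 0.11.5, Cuffdiff and Cufflinks on GRCm38, per the submitters' processing notes. Options and strand handling are not given in the sources used here, so overlapping genes may share reads. For each gene the authors deposited 1 FPKM per group, pooled over replicates, with the test statistic, a score, and the p-value and q-value of UV against untreated cells, per the file headers. Depth per sample is unknown. Replicates are called biological, but nothing says that they came from separate animals, so p-values measure only the spread between these samples, which may be technical. A further deposited sheet that repeats tested genes was not used.

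Log2 fold changes were recomputed from FPKM without a pseudocount, for genes of status OK with FPKM of 1 or more in a group. The SE was the log2 fold change over the test statistic. The difference between genotypes was tested over 12300 genes. With simulated data of the same size, 10.4%, 56.7% and 77.3% of log2 differences of 1, 2 and 3 were recovered. The simulated errors were drawn from the same SE and normal curve that the test uses, so that SE was not checked by it. Lengths and biotypes came from GENCODE M21; running medians used 501 genes. Members and lists were chosen with earlier results of these data known. All members could be named, and from each wider list up to 3 called rises and 3 falls of largest size in p53KO cells. Eif2ak2 was named in addition, as the gene of PKR. Python 3.11.15, numpy 2.4.6, scipy 1.17.1 and pandas 2.3.3 were used.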

Additional observations from a re-analysis of the deposited data

How the results depend on the processing

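The deposited values are pooled, so no replicate could be left out. No paired analysis was possible because the columns carry no replicate. A stricter q of 0.01, other FPKM filters and centring on the median left each count of called members within 1.5 times. A log2 fold change of at least 1 left 6 lower in p53KO cells, and 4 higher and 7 lower in p53CryKO cells; p from the implied error left 7 lower in p53KO cells. Over the 24 members alone in their locus, a setting chosen after seeing the data that has fewer members by construction, 12 were higher and 6 lower in p53KO and 11 and 8 in p53CryKO cells. No member differed between genotypes under any of 4 alternatives, with a smallest adjusted p of 0.0813 to 1.

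At equal coding FPKM 1 was higher and 18 lower in p53KO cells and 1 was higher in p53CryKO cells. The shift alone turned these log2 fold changes negative: in p53KO cells Atf5 -0.62, Ddit3 -0.57, Atf6 -0.60, Sdf2l1 -0.62, Psat1 -0.39, Phgdh -0.18, Shmt2 -0.30, Atf6b -0.98, Dnajc3 -0.029, Canx -0.054 and Edem1 -0.80; in p53CryKO cells Atf5 -0.45, Ddit3 -0.81, Canx -0.68, Trib3 -0.46, Asns -0.40, Psat1 -0.76, Phgdh -0.22, Psph -0.50, Shmt2 -0.27, Mthfd2 -0.15, Slc3a2 -0.22, Atf6 -0.99, Atf6b -0.93, Hsp90b1 -0.094, Dnajb9 -0.27, Dnajc3 -0.47, Sdf2l1 -0.97, Creld2 -0.11, Manf -0.14, Pdia6 -0.23, Calr -0.93 and Edem1 -0.99. Centring on the median turned 4 values near 0, none of them called: Atf6b -0.016 in p53KO cells, and Atf6 -0.025, Sdf2l1 -0.0053 and Edem1 -0.027 in p53CryKO cells.

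The arm contrast, which has no test, lay between 0.10 and 0.37 for p53KO and between 0.18 and 0.41 for p53CryKO over the pseudocount, filters, length trend, mean and the ATF4 arm without transcription factors. After seeing the data it was also taken without degradation genes (-0.23 and -0.082), without those and the transcription factors (-0.028 in p53CryKO cells) and over members alone in their locus (0.79 in p53KO cells). Without degradation genes and transcription factors the p53KO medians were 1.01 and 0.996, so the ATF4 arm was not the lower one there.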
